A study of Mus musculus with 6 samples.

Results

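Retinoid handling genes were followed across 9 hypothalamic cell types. The set held 8 genes out of 16411 listed: Stra6, Crabp1, Crabp2, Aldh1a1, Aldh1a2, Rarb, Rxra and Rarres2. Their rows were found by gene symbol, and all 8 had UMIs (unique molecular identifiers, that is, counted RNA molecules). The counts were summed over the cells of each mouse and each deposited cell type label. A level is given as CPM, the UMIs of a gene per 1000000 UMIs of such a sum, with the SD over mice.

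The cells came from the hypothalamus of male ob/ob mice, which lack leptin, aged 11 weeks. Every mouse received 3 µg of FGF1 R50E, a mutant form of fibroblast growth factor 1, by intracerebroventricular (icv) injection and was killed on Day 5. The labels name 6 mice in this 1 group, and the table of cells held 4 of them, mice 3, 4, 30 and 34. Another 12 libraries of the table belong to no labelled sample and were not used, so no effect of the treatment or of the ob/ob genotype was estimated, and every comparison was between cell types of the same mice.

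The 4 mice gave 20151 cells, from 3005 in mouse 30 to 7386 in mouse 3, with 3299971 to 8856079 UMIs per mouse. There were 5909 astrocytes, 4566 oligodendrocytes, 4490 tanycytes, 1530 ependymal cells, 1266 endothelial cells, 1261 oligodendrocyte precursor cells, 681 committed oligodendrocyte precursors, 380 microglia and 68 vascular leptomeningeal cells (VLMCs). Each label held the highest summed level of its own marker list. The tanycyte list (Rax, Col23a1, Gpr50 and 6 others) came to 2238 to 2930 CPM in tanycytes. Neuronal markers stayed at or below 469 CPM in every sum, so these libraries describe non-neuronal cells. The endothelial label also held mural cell markers, at 3246 to 3620 CPM. The VLMCs rested on 6, 12, 44 and 6 cells in mice 3, 4, 30 and 34, and the mural list reached 453 to 2709 CPM in them. Between libraries, 194 cell barcodes were shared by 2 or more mice.

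Retinol (vitamin A) travels in blood on retinol-binding protein and enters cells through the membrane receptor STRA6. Inside, retinol dehydrogenases make retinal, and the retinaldehyde dehydrogenases, among them ALDH1A1 and ALDH1A2, oxidise it to retinoic acid. The carriers CRABP1 and CRABP2 bind retinoic acid, which acts on retinoic acid receptors (RARs) paired with retinoid X receptors (RXRs), and CYP26 enzymes break it down. Tanycytes are radial glia-like cells at the base of the third ventricle. They have been studied as a site of retinoid handling in seasonal rodents, while the meninges are known as a source of retinoic acid in the developing brain. Rarres2 encodes chemerin, a secreted chemoattractant named for its induction by a synthetic retinoid.

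Rarb is the member with the best known retinoic acid response element, so its promoter is shown as background to the receptor results. The sequence is that of RefSeq on build GRCm38.p6, minus strand, the 250 bases before the start site at chr14:16575477-16575726. The capitals mark 2 hexamers spaced by 5 bases, an arrangement called DR5, which lay 53 to 37 bases before the start.

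Rarb promoter: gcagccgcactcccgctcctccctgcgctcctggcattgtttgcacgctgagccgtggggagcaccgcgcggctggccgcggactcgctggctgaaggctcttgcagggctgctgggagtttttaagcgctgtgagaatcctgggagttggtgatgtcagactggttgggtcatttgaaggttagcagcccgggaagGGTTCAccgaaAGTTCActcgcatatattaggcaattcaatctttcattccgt

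The search took the hexamer AGGTCA, its variant AGTTCA, and the forms GGTTCA and also GGGTCA. Any 2 of them in the same direction counted if spaced by 5 bases, on both strands of windows of 300 bases (250 before the start and the rest after it). Such an element lay in 32 of 32851 promoters (0.0974%). Of the members, 6 had a promoter entry, with 11 promoters in all, and only the Rarb promoter held the element. Among 33 other retinoid pathway genes with a promoter entry, Cyp26a1 was the 1 with a match. A match describes letters in a window and was not tied to any value here. The libraries count the 3′ ends of transcripts, so Rarb transcripts from this start and from others were counted together.

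The members fell into 3 abundance classes by the number of UMIs they left. Rarres2 had 7448, Aldh1a1 had 1017 and Rxra had 989 UMIs over all cells. Stra6 had 147. Crabp2, Rarb, Crabp1 and Aldh1a2 had 72, 58, 52 and 47, so most of their levels rest on a handful of molecules per mouse. The plot of CPM by mouse and type shows that the types in which a member was highest differed from gene to gene: ependymal cells for Rarres2, endothelial cells for Stra6, astrocytes and VLMCs for Aldh1a1, and VLMCs for Aldh1a2 and Crabp2.

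**Figure D1:**
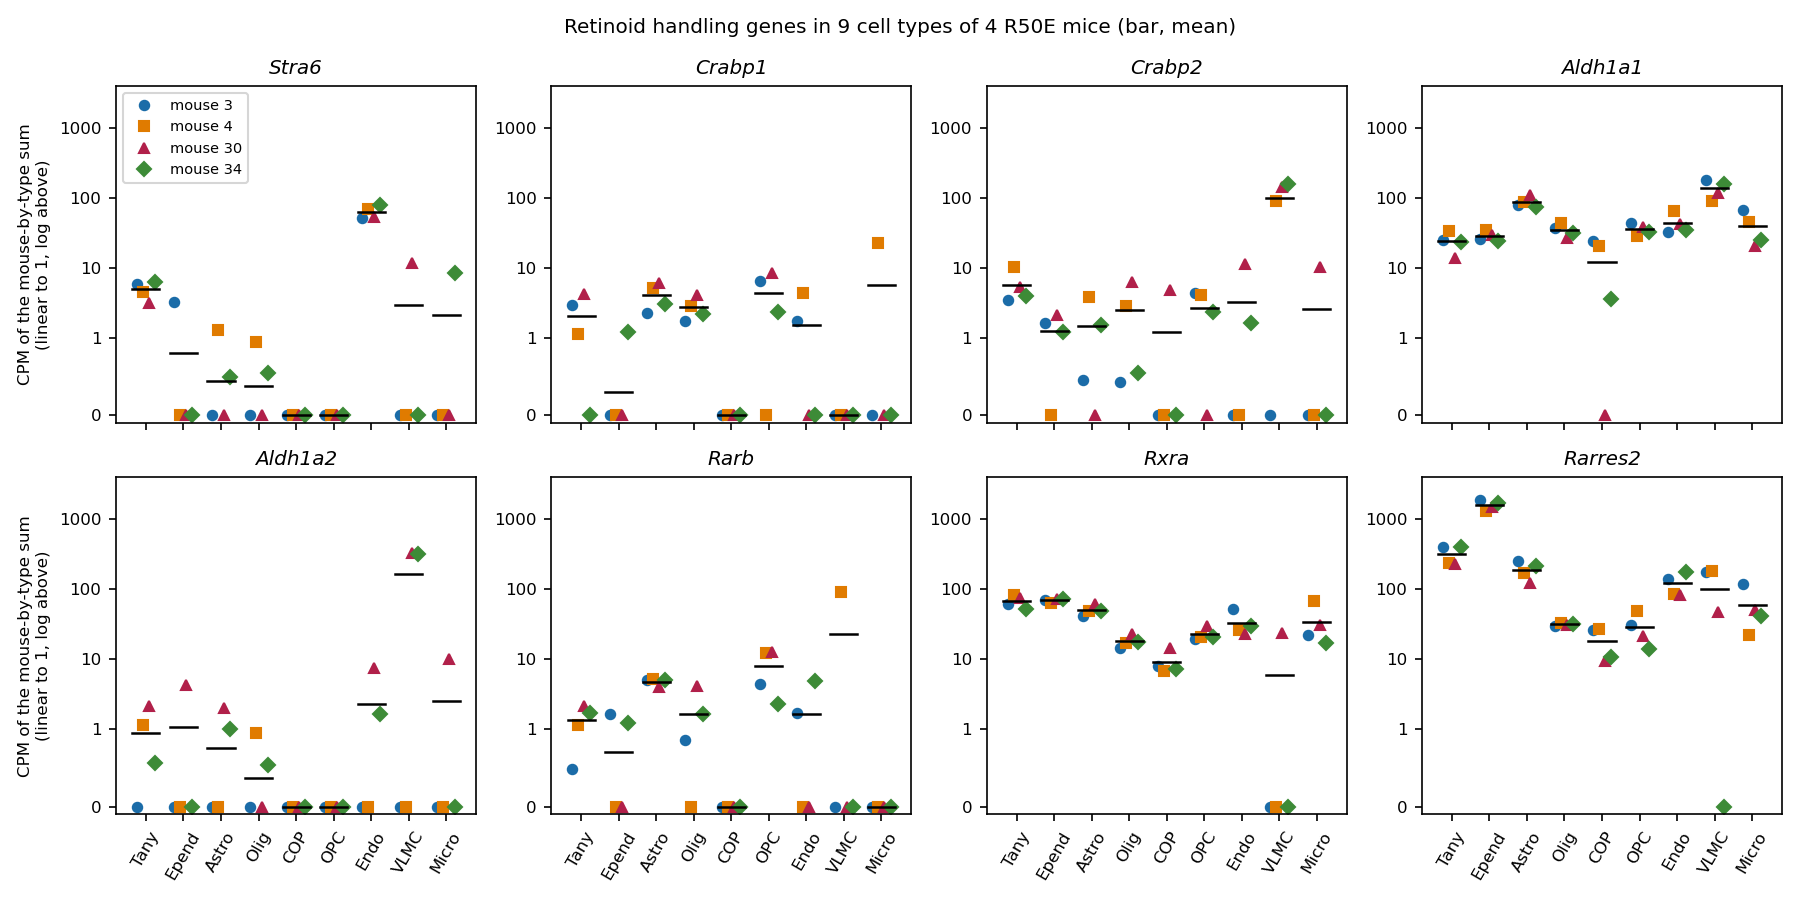
Level of each member in 9 cell types, in CPM of the mouse-by-type sum (linear to 1, logarithmic above). Each point is 1 of 4 mice and the bar is their mean. Rarres2 was at 1305 to 1893 CPM in ependymal cells and at 233 to 408 CPM in tanycytes, while Stra6 was above 50 CPM only in endothelial cells.

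Stra6, the retinol uptake receptor, was an endothelial transcript in these cells, with a small amount in tanycytes. It lies at chr9:58063788-58153996 on the plus strand (GRCm38) and overlaps Ccdc33 on the other strand. Endothelial cells held 109 of its 147 UMIs (74.1%) in 6.28% of the cells. Their level was 51.4, 69.3, 53.1 and 80.1 CPM in mice 3, 4, 30 and 34, a mean of 63.5 ± 13.7 CPM (SD, n = 4). Tanycytes held 30 UMIs, at 5.90, 4.54, 3.16 and 6.16 CPM, a mean of 4.94 ± 1.38 CPM. The 2 ranges did not overlap, and no mouse had a tanycyte value near its endothelial value. In edgeR's quasi-likelihood test with mouse as a block, the log2 fold change of tanycytes over endothelial cells was -3.57 ± 0.27 (SE), with a Benjamini-Hochberg adjusted p of 9.49e-13, lower in 4 of 4 mice. Of the 7 fits, Stra6 passed the filter on low counts only in this one, through the endothelial sums, where it is high. Without the filter the value was -3.55 ± 0.28 (edgeR adjusted p = 7.18e-36). Fold and SE hardly moved, so the smaller p does not stand for a larger or better measured difference. The p-values of all fits without the filter carry this caution.

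Stra6 had few UMIs in the other types. Ependymal cells, astrocytes and oligodendrocytes had 2 UMIs each, VLMCs and microglia 1 each, and the 2 precursor types none, which allows up to 2.35 CPM in committed precursors and 2.19 CPM in oligodendrocyte precursor cells (3 UMIs of the total, counting error only). The 1 UMI in VLMCs, from mouse 30, gave a pooled level of 8.04 CPM with an interval of 0.204 to 44.8 CPM, so VLMCs could not be placed above or below tanycytes, at a pooled 5.31 CPM. Microglia had a pooled 2.53 CPM (0.0640 to 14.1). By the mean over mice tanycytes ranked second, and from there on all neighbouring types overlapped. Stra6 was too low for the filter in the other comparisons. Fitted without the filter, tanycytes exceeded astrocytes by 3.58 ± 0.79 on the log2 scale (edgeR adjusted p = 7.81e-05) and ependymal cells by 2.49 ± 0.92 (adjusted p = 0.0248), with the tanycyte value higher in 4 of 4 mice in both. Those fits rest on 30 tanycyte UMIs against 2. The 6 endothelial markers, all detected in the 4 types named here, summed to 125 to 144 CPM in tanycytes, 36.3 to 44.0 CPM in astrocytes and 34.0 to 63.3 CPM in ependymal cells, against 7682 to 8269 CPM in endothelial cells. Their part in the tanycyte excess was not tested.

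Of the endothelial label, 206 cells had more mural than endothelial marker UMIs. They held 9 Stra6 UMIs (31.3 CPM), while the other 1060 cells held 100 (71.3 CPM). Per mouse, the second set stood at 50.5, 80.9, 59.5 and 93.5 CPM and the mural-marker set at 56.6, 22.0, 22.2 and 18.4 CPM, on 5, 1, 1 and 2 UMIs. The mural-marker value was lower in 3 of 4 mice, and in mouse 3 both were alike. A share of 7.77% of endothelial cells had a Stra6 UMI, against 0.624% of tanycytes and 0.0449% of oligodendrocytes, at median depths of 1064, 1143 and 1136 UMIs per cell. With each cell thinned to 500 UMIs the shares were 2.99%, 0.235% and 0.0160%. Oligodendrocytes serve here as a type that should lack the gene.

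Other genes of uptake and storage had their own patterns. Rbp4, the secreted carrier of retinol, had 60 UMIs in VLMCs, 49 in mouse 30, 11 in mouse 34 and none in mice 3 and 4. Every other type had at most 5 Rbp4 UMIs. Ttr, which carries retinol-binding protein and thyroid hormone, had 639 UMIs in tanycytes, and 571 of them came from mouse 3. The other 4 choroid plexus markers summed to 9.07 to 14.7 CPM in tanycytes, while Ttr went from 4.54 to 281 CPM. Lrat, which stores retinol as esters, was listed at 0 in every cell.

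Aldh1a1, a retinaldehyde dehydrogenase, was an astrocyte transcript among the abundant types and was low in tanycytes. It lies at chr19:20492715-20643465 on the plus strand and overlaps the non-coding C730002L08Rik and the pseudogene Gm6684 on the other strand. Astrocytes had 447 UMIs and 79.3, 88.7, 110 and 74.0 CPM in mice 3, 4, 30 and 34, a mean of 88.0 ± 15.9 CPM. Tanycytes had 136 UMIs and 25.1, 34.0, 13.7 and 23.5 CPM, a mean of 24.1 ± 8.33 CPM. Ependymal cells had 62 UMIs and 25.9, 34.6, 29.5 and 24.1 CPM, a mean of 28.5 ± 4.67 CPM. The astrocyte range lay above both others in every mouse, and tanycytes and ependymal cells overlapped.

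The tests put those distances beyond the spread between mice. For Aldh1a1 the log2 fold change of tanycytes over astrocytes was -1.81 ± 0.16 (edgeR adjusted p = 3.69e-12). That of ependymal cells over astrocytes was -1.74 ± 0.18 (edgeR adjusted p = 6.63e-08), and both held in 4 of 4 mice. Between tanycytes and ependymal cells the value was -0.13 ± 0.24 (adjusted p = 0.691). Tanycytes had the lower level in 4 of 4 mice, by less than 1 CPM in 3 of them. Endothelial cells, at 43.4 ± 14.9 CPM, had more than tanycytes in 4 of 4 mice (log2 fold change -0.74 ± 0.23, adjusted p = 0.00826), which did not reach the fold needed for a call. With DESeq2 the adjusted p of that difference was 0.0597.

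By mean level, the order for Aldh1a1 was VLMCs (137 ± 39.8 CPM), astrocytes, endothelial cells, microglia (39.4 ± 21.4), oligodendrocyte precursor cells (35.7 ± 6.67), oligodendrocytes (35.2 ± 7.61), ependymal cells, tanycytes and committed precursors (12.0 ± 12.0). Of the neighbours in that order, only astrocytes and endothelial cells had ranges that did not overlap. An Aldh1a1 UMI was seen in 4.10% of oligodendrocytes and 2.96% of tanycytes, at like depth. Thinned to 500 UMIs, the shares were 1.87% and 1.10%, against 4.52% in astrocytes.

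Aldh1a2, the retinaldehyde dehydrogenase of the embryo and the meninges, had most of its UMIs in VLMCs, and there in 2 of 4 mice. It lies at chr9:71215789-71296243 on the plus strand and overlaps the pseudogene Gm48124 on the other strand. VLMCs made up 0.337% of the cells and held 32 of the 47 UMIs (68.1%). Mice 30 and 34 had 28 and 4 UMIs, 333 and 319 CPM. Mice 3 and 4 had none, but 3 UMIs would have been 536 CPM in the 6 cells of mouse 3 and 136 CPM in the 12 cells of mouse 4. The absence of UMIs in mouse 3 therefore did not exclude a level as in mice 30 and 34. The other 15 UMIs lay in 6 types with 4 or fewer each, at mean levels up to 2.53 CPM.

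The filter on low counts removed Aldh1a2 and Crabp2 from the fits with VLMCs. Without the filter, Aldh1a2 was lower in tanycytes than in VLMCs by -6.70 ± 0.65 on the log2 scale (edgeR adjusted p = 7.18e-22) and higher in VLMCs than in endothelial cells by 5.42 ± 0.83 (adjusted p = 2.17e-08). With mouse 30 also left out, an alternative chosen after seeing the data, the values were -6.04 (adjusted p = 0.0508) and 5.67 (adjusted p = 0.149), so the calls rest on the 44 cells of that mouse. The tanycyte level of Aldh1a2, 0.950 ± 0.899 CPM, came from 4 UMIs and overlapped those of ependymal cells and astrocytes.

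VLMCs differed between mice in more than these genes, which is shown in the plot of VLMC levels by mouse. Dcn and Lum, fibroblast matrix genes, were at 6259 and 1788 CPM in mouse 3 and at 5889 and 951 CPM in mouse 4, against 1782 and 143 CPM in mouse 30 and 1676 and 160 CPM in mouse 34. Rbp4 and Aldh1a2 had UMIs in the second pair of mice only. Igf2 stood at 2325, 45.3, 2174 and 559 CPM in mice 3, 4, 30 and 34 and did not follow that split. Of the other VLMC markers, Col1a1 followed it, at 1252, 1314, 309 and 239 CPM in the same order of mice. Col1a2 did so more weakly, at 1967, 1404, 1057 and 1277 CPM. Slc6a13 did not, at 1073, 408, 440 and 479 CPM. Within mouse 30, 16 of the 32 VLMCs with an Igf2 UMI had an Aldh1a2 UMI, 26 had Rbp4 and 14 had Cyp26b1. Among its 12 VLMCs without Igf2 the numbers were 1, 0 and 0. Cell depth and type were not separated in this count, which is a description of 1 mouse.

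**Figure D2:**
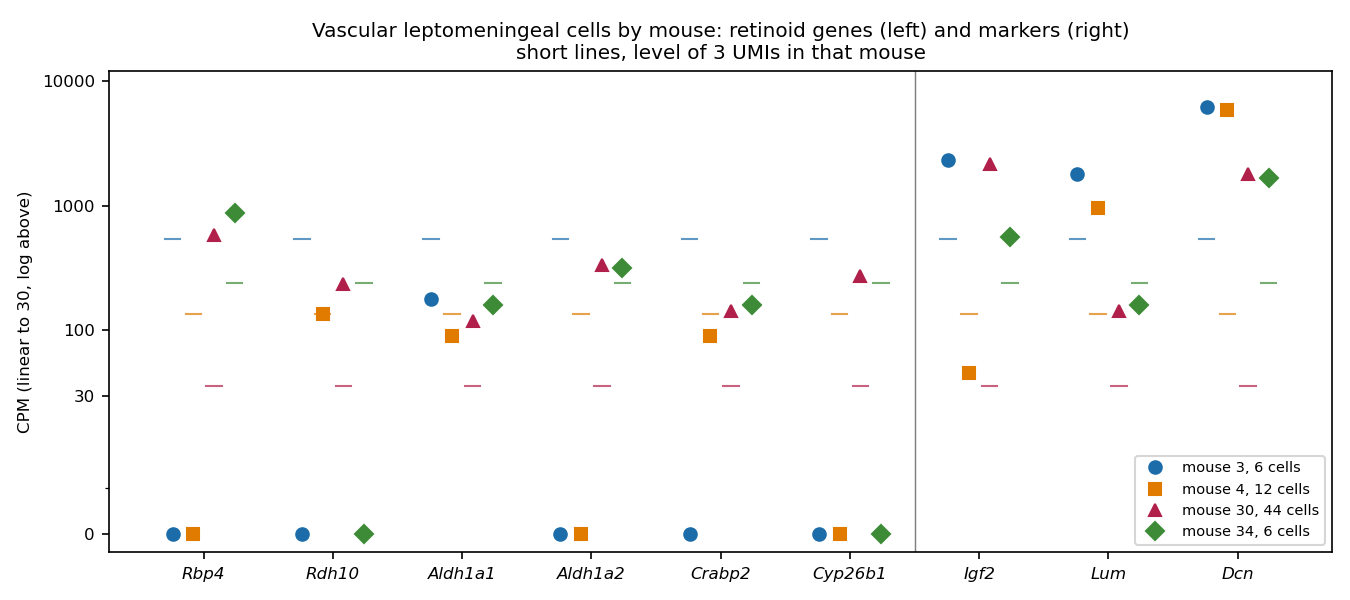
VLMC levels by mouse in CPM (linear to 30, logarithmic above) for 6 retinoid genes (left of the line) and 3 marker genes (right). Points are mice, and short lines show the level of 3 UMIs in that mouse. Rbp4 and Aldh1a2 had points above 0 in mice 30 and 34 only, and the line of mouse 3, with 6 cells, lay at 536 CPM.

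Aldh1a1 also led in VLMCs, on few molecules. They held 15 UMIs, that is 1, 2, 10 and 2 in mice 3, 4, 30 and 34, or 179, 90.6, 119 and 160 CPM. The exact Poisson 95% interval of the pooled level, 121 CPM, was 67.5 to 199 CPM, which covers counting error only. Tanycytes were lower than VLMCs by -2.32 ± 0.57 on the log2 scale (edgeR adjusted p = 0.00127), in 4 of 4 mice. Without mouse 30 the value was -1.44 (adjusted p = 0.423), and the call was lost. VLMCs against endothelial cells gave 1.44 ± 0.56 (adjusted p = 0.0623). That difference passed the test without the mouse block (1.62, adjusted p = 0.0161) and without mouse 4 (1.72, adjusted p = 0.0289).

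The dehydrogenases that work before and beside the ALDH1A enzymes were spread over several types. Rdh5, a retinol dehydrogenase, was at 90.4 ± 30.8 CPM in astrocytes and 21.7 ± 6.04 CPM in tanycytes. Dhrs3, which reduces retinal back to retinol, was at 84.8 ± 11.4 CPM in astrocytes, 58.9 ± 16.8 CPM in ependymal cells and 18.3 ± 4.58 CPM in tanycytes. Rdh10, the retinol dehydrogenase that makes most retinal in the embryo, was at 43.8 ± 19.4 CPM in ependymal cells and 14.8 ± 2.18 CPM in tanycytes. In ependymal cells its levels were 16.2 CPM in the lowest mouse and 60.6 CPM in the highest. Its highest mean, 93.4 CPM, was in VLMCs and came from 20 UMIs in mouse 30 and 3 in mouse 4, with none in mice 3 and 34. Aldh1a3 and Adh1 were listed at 0. Cyp26b1, which degrades retinoic acid, had 23 UMIs in the VLMCs of mouse 30 and none in those of the other mice, and tanycytes had 13 UMIs (2.39 ± 0.610 CPM).

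Crabp2, a carrier that delivers retinoic acid to nuclear receptors, had its highest level in VLMCs. It was seen in tanycytes and oligodendrocytes of every mouse. It lies at chr3:87948666-87953376 on the plus strand. VLMCs had 0, 2, 12 and 2 UMIs in mice 3, 4, 30 and 34, or 0, 90.6, 143 and 160 CPM. Tanycytes had 7, 9, 5 and 7 UMIs, or 3.44, 10.2, 5.27 and 3.92 CPM, a mean of 5.71 ± 3.10 CPM and a pooled interval of 3.29 to 7.16 CPM. Every other type had a mean of at most 3.26 CPM, but in mouse 30 endothelial cells (11.4 CPM) and oligodendrocytes (6.17 CPM) were above tanycytes. In fits without the filter, tanycytes exceeded astrocytes by 1.81 ± 0.62 on the log2 scale (edgeR adjusted p = 0.0129), in 4 of 4 mice. The difference from ependymal cells, 1.94 ± 0.85, had an edgeR adjusted p of 0.0654. That from endothelial cells, 0.99 ± 0.83, had an edgeR adjusted p of 0.385. Tanycytes were lower than VLMCs by -3.64 ± 0.62 (adjusted p = 3.83e-07), and VLMCs exceeded endothelial cells by 4.15 ± 0.81 (adjusted p = 3.95e-05). Without mouse 30 the values were -2.78 (adjusted p = 0.394) and 5.23 (adjusted p = 0.204).

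Crabp1, the carrier linked to retinoic acid breakdown, was sparse in every type and had no leading one. It lies at chr9:54764748-54773110 on the plus strand. Tanycytes had 6, 1, 4 and 0 UMIs in mice 3, 4, 30 and 34, a mean of 2.07 ± 1.87 CPM. Astrocytes had 5, 4, 3 and 6 UMIs (4.10 ± 1.76 CPM) and oligodendrocytes 13 in all (2.71 ± 1.04 CPM). All neighbouring types overlapped, and the share of its UMIs in tanycytes, 21.2%, was near the tanycytes' 22.3% share of cells. No Crabp1 UMI fell in VLMCs or committed precursors, which allows up to 24.1 and 2.35 CPM. Without the filter, no Crabp1 difference passed in the 3 comparisons of tanycytes with ependymal cells, astrocytes and endothelial cells. Fabp5, which can also carry retinoic acid, was abundant in all glia, at 364 ± 88.2 CPM in tanycytes and 131 ± 30.4 CPM in endothelial cells.

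Rxra, the RXR that pairs with RARs and other nuclear receptors, was highest in the cells lining the ventricle. It lies at chr2:27676440-27762957 on the plus strand. Ependymal cells had 69.5, 63.5, 71.7 and 72.2 CPM in mice 3, 4, 30 and 34, a mean of 69.2 ± 3.98 CPM from 159 UMIs. Tanycytes had 61.0, 82.8, 74.8 and 52.7 CPM, a mean of 67.8 ± 13.5 CPM from 362 UMIs. Astrocytes had 41.3, 48.8, 62.0 and 48.5 CPM, a mean of 50.1 ± 8.66 CPM. The astrocyte value lay below the tanycyte value within each mouse, although the ranges overlapped.

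Among tanycytes, ependymal cells and astrocytes the differences in Rxra were small. Tanycytes and ependymal cells differed by -0.02 ± 0.16 on the log2 scale (edgeR adjusted p = 0.924), with 2 mice on either side. Tanycytes exceeded astrocytes by 0.39 ± 0.14 (adjusted p = 0.0145) and endothelial cells by 0.81 ± 0.22 (adjusted p = 0.00197), in 4 of 4 mice, both below the fold needed for a call. The difference from endothelial cells met the call without mouse 3 (1.23, edgeR adjusted p = 0.000547) and with sums thinned to equal totals (1.42, edgeR adjusted p = 0.000187). Under the other alternatives it lay between 0.66 and 0.96. The difference from astrocytes was 0.41 with DESeq2 (adjusted p = 0.137), 0.31 without mouse 3 (adjusted p = 0.139) and 0.31 without mouse 4 (adjusted p = 0.0844). Ependymal cells exceeded astrocytes by 0.40 ± 0.17 (adjusted p = 0.0434), which did not pass under 7 of the alternatives. The oligodendrocyte lineage was lower, with 22.6 ± 4.74 CPM in oligodendrocyte precursor cells, 18.1 ± 3.34 CPM in oligodendrocytes and 9.10 ± 3.54 CPM in committed precursors, and the last 2 did not overlap. VLMCs had 2 Rxra UMIs, both in mouse 30, and their difference from tanycytes, 2.36 ± 0.98, had an adjusted p of 0.116.

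Rarb, a receptor that retinoic acid itself induces, was at the edge of detection. It lies at chr14:16430839-16819156 on the minus strand and overlaps Top2b on the other strand. Astrocytes held 27 of its 58 UMIs, at 4.99, 5.14, 4.00 and 5.00 CPM in mice 3, 4, 30 and 34, a mean of 4.78 ± 0.524 CPM. Oligodendrocyte precursor cells had 2, 3, 3 and 1 UMIs and a mean of 7.93 ± 5.37 CPM. VLMCs had the highest mean, 22.6 CPM, from 2 UMIs in mouse 4 (90.6 CPM) and none in the other mice, and overlapped the next type in the order, oligodendrocyte precursor cells. Tanycytes had 1, 1, 2 and 3 UMIs and a mean of 1.35 ± 0.699 CPM. The tanycyte range lay below the astrocyte range in every mouse. Without the filter, tanycytes were lower than astrocytes by -1.96 ± 0.62 on the log2 scale (edgeR adjusted p = 0.00680), and ependymal cells by -2.38 ± 0.97 (adjusted p = 0.0375). Microglia and committed precursors had no Rarb UMI, which allows up to 7.58 and 2.35 CPM.

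The other receptors complete the picture by type. Rara, the broadly used RAR, was at 29.8 ± 7.79 CPM in tanycytes, 22.8 ± 7.33 CPM in ependymal cells and 8.33 ± 4.00 CPM in astrocytes. It passed in the 2 comparisons with astrocytes, at log2 fold changes of 1.91 ± 0.25 (edgeR adjusted p = 3.26e-08) and 1.60 ± 0.32 (adjusted p = 0.000298). Rara and Rarb had opposite orders between tanycytes and astrocytes, on 164 and 7 tanycyte UMIs. Rarg was at 22.2 ± 9.27 CPM in endothelial cells and 10.5 ± 3.89 CPM in tanycytes, a log2 fold change of -1.33 ± 0.39 (edgeR adjusted p = 0.00431), and of -0.56 (adjusted p = 0.311) without mouse 3. Rorb, an orphan receptor of the retinoid-related family, was highest in astrocytes, at 199 ± 26.3 CPM.

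**Figure D3:**
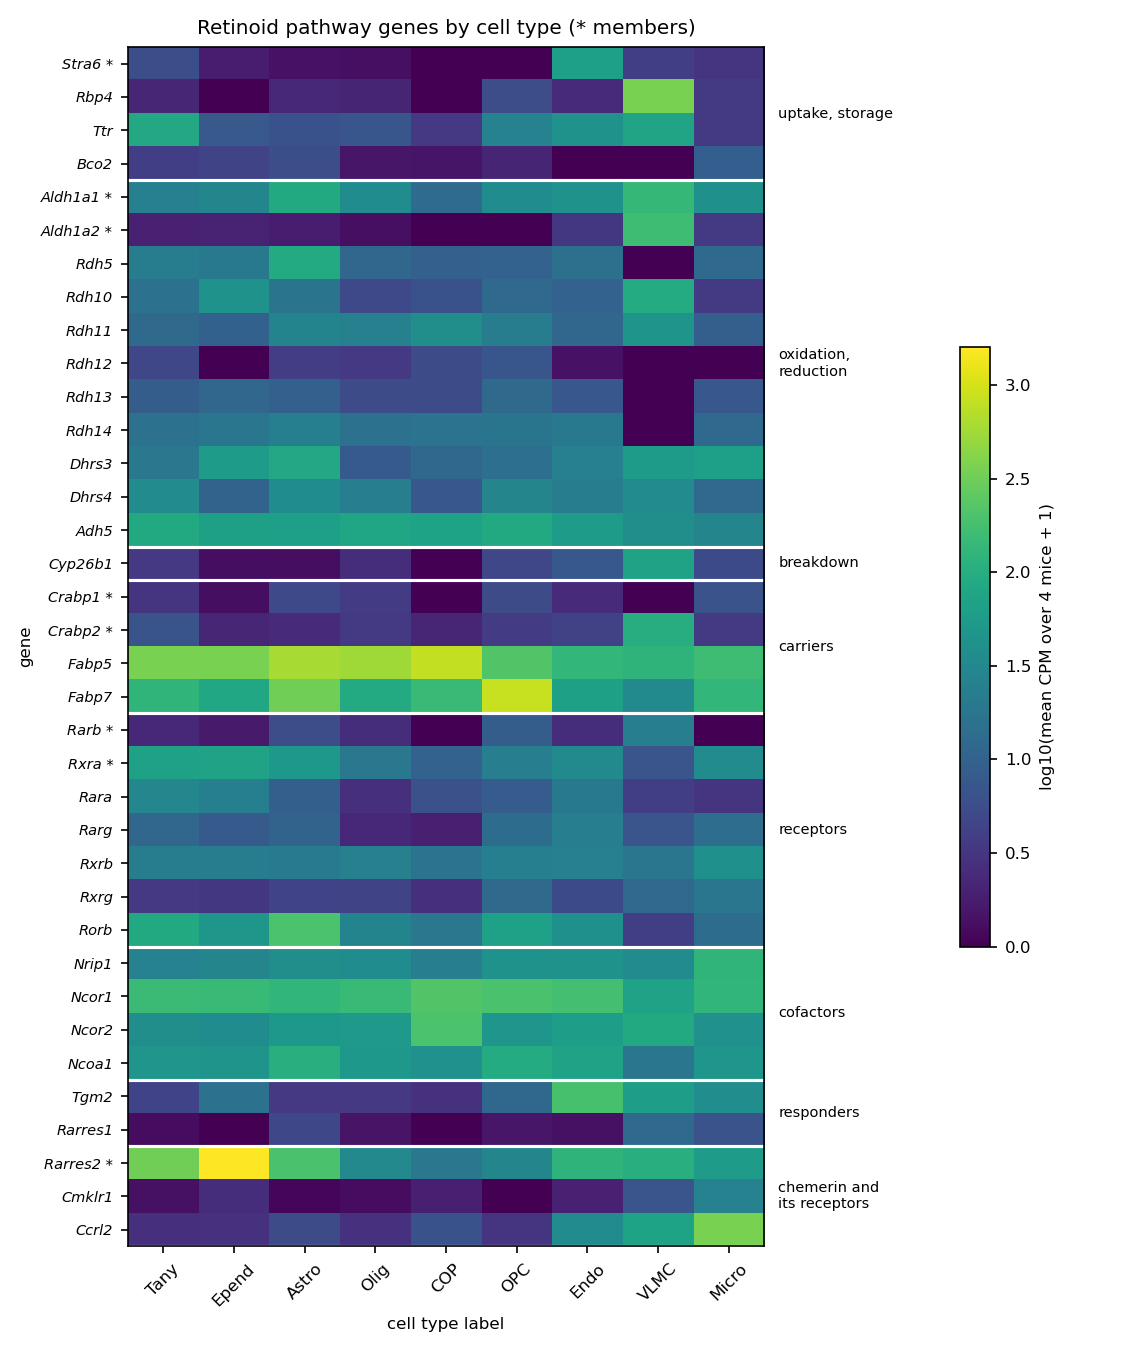
Mean level over 4 mice, as log10(CPM + 1), of the 8 members (asterisks) and of the pathway genes with UMIs, by cell type and grouped by role. VLMCs have the highest mean of the 9 types for Rbp4, Rdh10, Rdh11, Aldh1a1, Aldh1a2, Crabp2, Cyp26b1, Rarb and Rarres1, in levels that rest on 68 cells and, for Rdh11 and Rarres1, on 1 UMI each.

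Rarres2 was the member with the clearest gradient, from ependymal cells through tanycytes to astrocytes. It lies at chr6:48569696-48572789 on the minus strand and overlaps Lrrc61 on the other strand. Ependymal cells had 1893, 1305, 1487 and 1724 CPM in mice 3, 4, 30 and 34, a mean of 1602 ± 259 CPM. They made up 7.59% of the cells and held 50.5% of the UMIs. Tanycytes had 408, 242, 233 and 408 CPM, a mean of 323 ± 98.8 CPM. Astrocytes had 255, 170, 122 and 214 CPM, a mean of 190 ± 57.3 CPM. Within each mouse the order was the same, although the tanycyte and astrocyte ranges overlapped. The 6 ependymal markers (Ccdc153, Tmem212, Foxj1, Dynlrb2, Dnah12 and Tm4sf1), all detected in these types, had the same order. They summed to 5149 to 5906 CPM in ependymal cells, 506 to 652 CPM in tanycytes and 48.5 to 94.1 CPM in astrocytes. In endothelial cells they came to 516 to 808 CPM, no lower than in tanycytes. The sums were not split by gene, so they are not a measure of ependymal RNA in other types. The part of these markers in the Rarres2 differences was not tested.

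Each step of that order passed the test. The log2 fold change of tanycytes over ependymal cells was -2.24 ± 0.094 (edgeR adjusted p = 8.54e-24) and that of ependymal cells over astrocytes was 2.96 ± 0.13 (adjusted p = 1.44e-13). Tanycytes exceeded astrocytes by 0.74 ± 0.091 (adjusted p = 9.74e-09), in 4 of 4 mice but under the fold needed for a call. They exceeded endothelial cells, at 122 ± 45.6 CPM, by 1.37 ± 0.12 (adjusted p = 2.62e-11). VLMCs had 9 UMIs, and the excess of tanycytes over them, 2.08 ± 0.61 (adjusted p = 0.0136), did not pass with DESeq2 (2.00, adjusted p = 0.0715). It also did not pass without mouse 4 (2.91, adjusted p = 0.0535), mouse 30 (2.15, adjusted p = 0.0797) or mouse 34 (1.71, adjusted p = 0.171).

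In single cells, 78.6% of ependymal cells, 27.7% of tanycytes and 15.7% of astrocytes had a Rarres2 UMI, against 3.15% of oligodendrocytes, at median depths of 1131, 1143, 851 and 1136 UMIs. Thinned to 500 UMIs, the shares were 53.0%, 13.5%, 8.87% and 1.21% in the same order. Below astrocytes came endothelial cells, VLMCs (102 ± 92.3 CPM), microglia (58.8 ± 42.5), oligodendrocytes (31.4 ± 1.27), oligodendrocyte precursor cells (28.7 ± 15.3) and committed precursors (18.4 ± 9.50), each overlapping its neighbour. Within the endothelial label, the 206 mural-marker cells had 236 CPM and the other cells 118 CPM, with the first higher in 4 of 4 mice. Oligodendrocyte precursor cells and oligodendrocytes differed by -0.57 ± 0.27 (adjusted p = 0.0660), with 2 mice on either side. That difference passed the p threshold without the filter (-0.71, adjusted p = 0.0261) and without mouse 4 (-0.87, adjusted p = 0.0141), below the fold for a call in both.

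Mice 3 and 34 had the higher Rarres2 levels in ependymal cells, tanycytes, astrocytes and endothelial cells alike, and mice 4 and 30 the lower ones. The highest mouse exceeded the lowest 1.45 times in ependymal cells, 1.75 times in tanycytes, 2.09 times in astrocytes and 2.14 times in endothelial cells. Mice 3 and 34 also had more cells (7386 and 6580, against 3180 and 3005) and a higher median of UMIs per cell (1066 and 1038, against 947.5 and 909). The part of cell number and depth in this was not tested. Oligodendrocytes did not share the split, at 1.10 times. In oligodendrocyte precursor cells mouse 4 was highest and mouse 34 lowest (49.2 and 13.8 CPM), and in committed precursors mice 3 and 4 were the higher pair (26.1 and 27.2 CPM, against 9.57 and 10.9 CPM). Of the chemerin receptors, Ccrl2, which binds chemerin without signalling, was highest in microglia, at 358 ± 81.5 CPM. It had 24 UMIs in VLMCs, all in mouse 30, and stood at 34.1 ± 17.6 CPM in endothelial cells and 1.72 ± 1.68 CPM in tanycytes. Cmklr1, the signalling receptor, had 11 UMIs in microglia, 5 and 6 in mice 30 and 34, and at most 4 in any other type. Gpr1 was listed at 0 in every type.

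**Figure D4:**
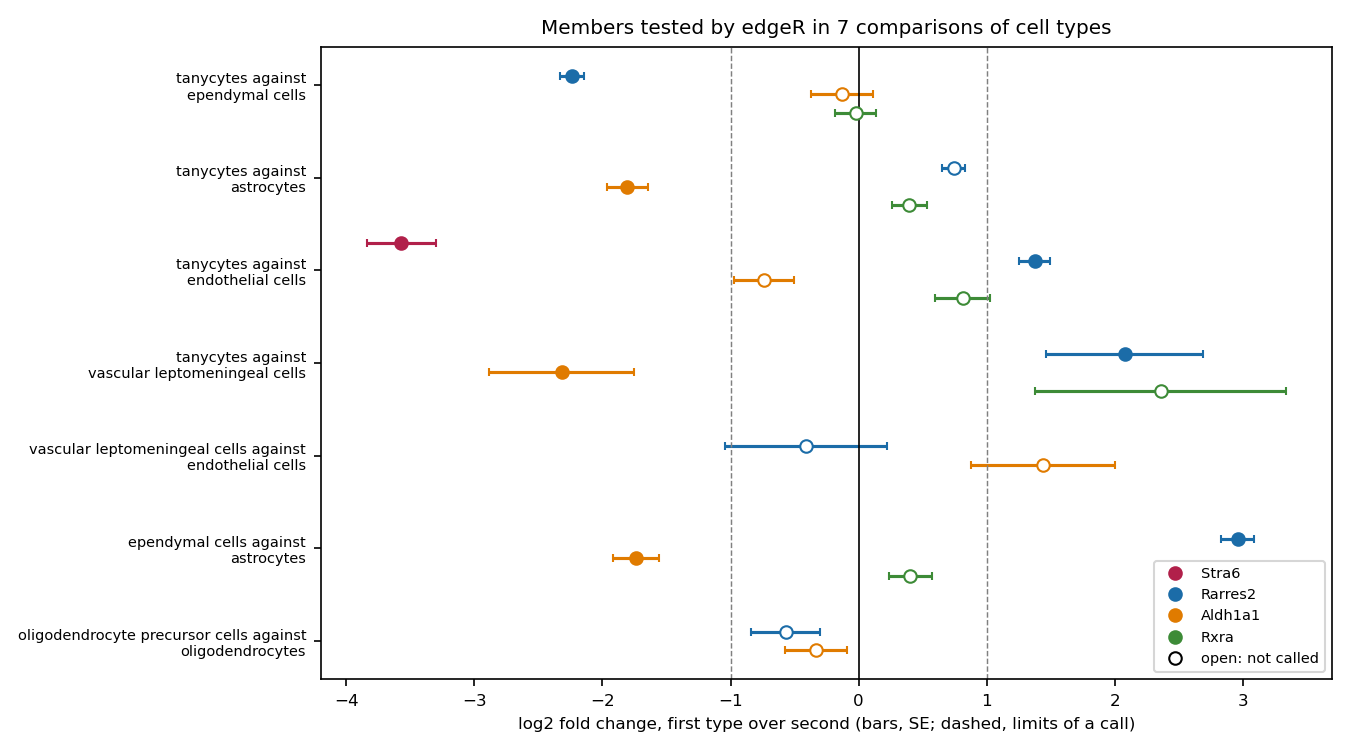
Log2 fold change (first type over second) of each member that passed the filter, in 7 comparisons of cell types. Bars are SE, dashed lines the fold limits of a call, and filled points the calls. Rarres2 lay at -2.24 for tanycytes against ependymal cells and at 2.96 for ependymal cells against astrocytes.

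A call needed an adjusted p below 0.05 over all genes tested, with a log2 fold change beyond 1 in either direction. Between tanycytes and ependymal cells, 3 members could be tested and 1 was called (Rarres2), against 19.8% of all 8781 genes tested. It was also the 1 that passed by adjusted p alone, as 46.3% of all genes did. Between tanycytes and astrocytes, 1 of 3 was called (Aldh1a1), against 21.1% of all genes, and 3 passed by adjusted p alone, against 51.6%. Between tanycytes and endothelial cells, 2 of 4 were called (Stra6 and Rarres2), against 32.3%, and 4 passed by adjusted p alone, against 55.2%. Stra6 entered that fit only through the endothelial sums, where it is high. Between ependymal cells and astrocytes, 2 of 3 were called (Rarres2 and Aldh1a1), against 31.8%, and 3 passed by adjusted p alone, against 56.9%. With so few members tested, these shares describe the members and set them apart from no other genes.

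The comparisons with VLMCs and of the oligodendrocyte lineage gave fewer tests. Between tanycytes and VLMCs, 2 of 3 members were called (Rarres2 and Aldh1a1), against 8.39% of all genes (8.44% by adjusted p alone), and the median log2 fold change of all genes tested was 0.45. Without mouse 30 no member was called there. Between VLMCs and endothelial cells, 0 of 2 were called, against 15.9% of all genes, with an overall median of -0.24. Aldh1a1 alone had an unadjusted edgeR p under the 0.05 threshold there, and DESeq2 also called 0. By adjusted p alone 15.9% of all genes passed. Between oligodendrocyte precursor cells and oligodendrocytes, 0 of 2 were called, against 28% of all genes, and 55.1% passed by adjusted p alone. Rarres2 alone had an unadjusted edgeR p under the 0.05 threshold there, and DESeq2 also called 0.

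The members missing from each fit had too few UMIs for the filter. Fitted without it, all 8 were tested in each comparison. The adjusted p can be far lower in those fits at a like fold and SE. For Rarres2 between tanycytes and ependymal cells, the edgeR adjusted p was 8.54e-24 with the filter and 1.20e-127 without it. Without the filter, 2 were called between tanycytes and ependymal cells (Rarres2 and Stra6), against 16.7% of all genes. Between tanycytes and astrocytes 4 were called (Aldh1a1, Stra6, Crabp2 and Rarb), against 19%. Tanycytes and endothelial cells gave 2, against 26%, and tanycytes and VLMCs gave 4 (Rarres2, Aldh1a1, Crabp2 and Aldh1a2), against 6.65%. VLMCs and endothelial cells gave 2 (Crabp2 and Aldh1a2), against 4.13%, ependymal cells and astrocytes gave 3, against 26%, and the oligodendrocyte lineage gave 0, against 20.6%.

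The wider retinoid pathway was read from a list of 40 further genes, of which 32 were in the gene list. Against ependymal cells, 5 of 16 tested were called in tanycytes, beside 19.8% of all genes. Dhrs4 (log2 fold change 1.78), Rorb (1.01) and Ttr (3.12) were higher, and Rdh10 (-1.36) and Dhrs3 (-1.56) lower. Ttr rested on mouse 3: it was higher in 3 of 4 mice, and without mouse 3 its value was 0.78 (edgeR adjusted p = 0.148). Without mouse 34 it was too low to be tested, here and against astrocytes. Rorb fell short of the fold for a call without mouse 3 (0.93) or 34 (0.83). The median of the 16 was 0.15, beside 0.03 over all genes. Against astrocytes, 8 of 19 were called, beside 21.1% of all genes. Rara (1.91) and Ttr (3.90, and 1.14 without mouse 3) were higher, and Rdh5 (-2.19), Dhrs3 (-2.18), Fabp7 (-1.40), Rdh11 (-1.27), Rorb (-1.20) and Ncoa1 (-1.16) were lower, with a median of -0.46 beside -0.01 over all genes. Of the 8 genes tested in the oxidation and reduction group, the 3 called (Rdh5, Rdh11 and Dhrs3) were lower in tanycytes in 4 of 4 mice. By adjusted p alone Rdh14 was also lower (-0.59, edgeR adjusted p = 0.0226) and Adh5 higher (0.37, adjusted p = 0.0111), and Rdh10, Rdh13 and Dhrs4 did not pass.

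Against endothelial cells, 4 of 18 pathway genes were called in tanycytes, beside 32.3% of all genes. Fabp5 (1.46) and Rorb (1.26) were higher, and Tgm2 (-5.49) and Rarg (-1.33) lower, with a median of 0.14 beside 0.0042 over all genes. Rarg was not called without mouse 3. Tgm2, a transglutaminase induced by retinoic acid in several cell types, was at 186 ± 35.4 CPM in endothelial cells. Against VLMCs, 2 of 12 were called, Rorb (3.66) and Fabp5 (2.35), both higher, beside 8.39% of all genes, with a median of 1.01 beside 0.45 over all genes. Without mouse 4, 30 or 34, Rorb stood at 3.42, 9.11 and 3.51 and was not called (edgeR adjusted p = 0.188, 0.174 and 0.0740). Without mouse 4 or 34, Fabp5 stood at 2.40 and 2.10 and was not called (edgeR adjusted p = 0.108 and 0.0586). Between VLMCs and endothelial cells 6 were tested, and the lowest edgeR adjusted p was 0.113, for Ttr.

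Ependymal cells differed from astrocytes in 8 of 16 pathway genes, beside 31.8% of all genes, with a median of -0.64 beside -0.02 over all genes. Rara (1.60) and Rdh10 (1.15) were higher, and Rdh5 (-2.47), Rorb (-2.24), Fabp7 (-2.06), Dhrs4 (-1.88), Rdh11 (-1.85) and Ncoa1 (-1.28) lower. Rdh10 fell short of the fold for a call without mouse 4 (0.99) or 34 (0.95), and Rara was too low to be tested without mouse 3 or 34. Between oligodendrocyte precursor cells and oligodendrocytes, 3 of 11 were called, beside 28% of all genes, with Fabp7 (2.94) and Rorb (1.10) higher and Fabp5 (-1.74) lower. Rorb fell short of the fold without mouse 3 (0.94) or 34 (0.89). The comparisons share cell types, so their counts are not independent. Leaving out each mouse for these genes was an alternative chosen after seeing the data.

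The deposited clusters split the tanycytes into cluster 1 with 2758 cells and cluster 2 with 1731, and 1 cell lay outside both. The most abundant members had close pooled levels in both: Rarres2 stood at 341 and 366 CPM, Rxra at 67.6 and 60.2 CPM, and Aldh1a1 at 23.4 and 24.8 CPM over all mice. Stra6 had 14 and 16 UMIs, Crabp2 11 and 17, Crabp1 8 and 3, and Rarb 6 and 1. These are pooled values with no test.

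Genes with the most similar pattern were sought for the 4 members with at least 100 UMIs, by Pearson's r of log2(CPM + 10) over the 36 mouse-by-type sums among 10107 genes. For Stra6 they were Cox4i2 (0.95), Cyyr1 (0.95) and Tek (0.95). For Rarres2 they were Riiad1 (0.88), 1700088E04Rik (0.88) and Meig1 (0.87). For Aldh1a1 they were Gjb6 (0.80), Lama2 (0.78) and Cmbl (0.77), and for Rxra Agtrap (0.91), Dalrd3 (0.87) and Morn2 (0.86). The sums share mice and libraries and differ in depth, and with a pseudocount of 1 only Cyyr1, 1700088E04Rik, Lama2, Dalrd3 and Morn2 stayed among the first 3 for their member.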

How the data were processed

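Single-cell libraries were made on the Chromium platform of 10x Genomics (3′ chemistry, v2). The authors deposited raw UMI counts per gene and cell, with a cell type label and clusters at resolution 0.4 for each cell. Their processing notes name Cell Ranger 1.2, Seurat and the builds GRCm38, mm10 and GRCh38. The making of the labels, the annotation version and the use of strand in counting are details not given in the sources used here. If the labels rest on the same counts, p-values between types are too small. A doublet score, deposited as a fraction, served to leave out the highest 5% of cells per mouse in 1 alternative, and how the authors treated doublets is not stated. Cells held at least 487 UMIs, and all 20151 sums equalled the deposited totals.

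Counts were summed per mouse and type (at least 5 cells). The 7 comparisons used edgeR 4.0.16 (R 4.3.3) quasi-likelihood tests with TMM, filterByExpr and mouse as a block, since both types came from the same animals, and Benjamini-Hochberg adjustment over all genes tested. SEs were derived from the F statistic. The fit was tested on simulated data. DESeq2 1.42.0 was an alternative, as were no filter, no block, thinning and leaving out each mouse. Intervals and floors cover counting error only. Fewer cells of a type in a mouse widen its error. Coordinates are those of GENCODE vM21 (GRCm38). The members, the pathway list and the tests were chosen with earlier results of these data known. By rule, named genes were the 8 members, the called genes of the pathway list, and the 3 genes most like each member with enough UMIs. Uncalled pathway genes (such as Rbp4, Lrat, Aldh1a3, Adh1, Cyp26b1 and the chemerin receptors) were named after their values were seen. So were the VLMC genes Dcn, Lum, Igf2, Col1a1, Col1a2 and Slc6a13. Of the pathway list, 1 gene is not reported here and stays out of its counts. Counts corrected by the authors over all libraries were not used.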

Additional observations from a re-analysis of the deposited data

Results flagged for a closer look

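Of 25 member levels with at least 20 UMIs in a type, 2 had 1 mouse apart from the other 3 by Dixon's criterion, and chance sets about 1 in 20 such groups apart. The Rarb level in astrocytes was 4.00 CPM in mouse 30, on 2 UMIs, against 4.99 to 5.14 CPM in the other mice. The Rxra level in oligodendrocyte precursor cells was 29.7 CPM in mouse 30, on 7 UMIs, against 19.7, 20.5 and 20.6 CPM. Both values differ from the others by a few molecules.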

How the results depend on the processing

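The number of members called changed most without the filter on low counts, which let all 8 be tested: 2 between tanycytes and ependymal cells, 4 between tanycytes and astrocytes, 4 between tanycytes and VLMCs and 2 between VLMCs and endothelial cells. For tanycytes against VLMCs, DESeq2 called 1, and leaving out each mouse in turn gave 0 to 3, with 0 without mouse 30, 1 without mouse 4 or 34 and 3 without mouse 3. For VLMCs against endothelial cells, the fit with no replicate block called 1, and leaving out each mouse gave 0 to 1, with 1 without mouse 3 or 4. The replicate block moved no other count of calls. Among 193 alternative values of 20 log2 fold changes, 166 kept their direction and side of the p threshold, 16 lost the threshold, 4 gained it and 7 changed sign. Of 16 values of the 4 VLMC fold changes fitted without the filter, each with 1 mouse left out, 4 lost it, all without mouse 30. The sign changed for 2 values near 0, both between tanycytes and ependymal cells. Leaving out each mouse put Aldh1a1 between -0.22 and 0.062, the latter without mouse 30. Rxra was at 0.020 with DESeq2, 0.0044 without the filter, 0.017 without the block and 0.032 without cells of high doublet score, and leaving out each mouse gave -0.15 to 0.13, with a positive value without mouse 3 or 34. The cause was not tested. No VLMC comparison could be fitted with at least 20 cells per mouse, which 1 mouse had, and no member was left to test for tanycytes against VLMCs after thinning to equal totals. The number of cells limits the VLMC values: with 6 to 44 cells per mouse, 3 UMIs stand for 35.6 to 536 CPM per mouse.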
